A study of Mus musculus with 2 samples.

Results

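The cadherins and non-clustered protocadherins were followed through the nuclei of the hippocampus in single-nucleus RNA sequencing (snRNA-seq) of PS19 and PZKO mice. The members are the genes whose symbol is Cdh followed by a number, Cdhr followed by 1 digit, or Pcdh followed by a number with or without an x, which gave 40 of the 32285 genes counted: 23 *Cdh*, 5 *Cdhr* and 12 *Pcdh* genes. No measured level entered this choice. PS19 mice carry a transgene of human Tau with a dementia-causing mutation, driven by the mouse prion protein promoter, and have intact *Zbp1* (PS19 Zbp1-WT). PZKO mice carry the same transgene and lack *Zbp1* (PS19 Zbp1-KO), so both groups carry mutant Tau, and a group without it was not analysed here. Hippocampi of 5 males aged 9 months were pooled per genotype into 1 library, and no label tied a nucleus to an animal, although the protocol also states that animals were processed separately. With 1 library per genotype there was no replicate check and no test between genotypes, and each difference below is one between those 2 libraries.

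Cadherins are calcium-dependent adhesion proteins whose extracellular repeats bind the same or a closely related cadherin on the neighbouring cell. Classical cadherins bind catenins through their cytoplasmic tail and so link the membrane to actin, whereas the non-clustered protocadherins have other tails and bind more weakly. In the brain, different combinations of these proteins mark neuron types, layers and synapses, and others hold together the junctions of endothelium, meninges, choroid plexus and ependyma.

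The PS19 library held 9590 nuclei after filtering and the PZKO library 9307, with medians of 5849.5 and 9015 unique molecular identifiers (UMIs) per nucleus, and the libraries shared 47 barcodes. Over all nuclei deposited, the deleted gene *Zbp1* gave 0.996 UMIs per 1000000 (CPM) in PS19, from 116 UMIs, and 0.31 CPM in PZKO, from 53 UMIs, which is a log2 ratio of −1.69 (−2.18 to −1.20 as its 95% interval), and since the labels do not say which part of the gene is deleted, the UMIs in PZKO may lie outside it. Clusters were assembled into 33 classes, 23 of neurons and 10 of other cells. A total of 21 classes were named from marker lists, of which at least 4 markers were detected in every case, and these names are to be read as "X-like". The other 12 were called by 2 of their leading genes. Of these, the Prdm16/Col6a3 class is called inhibitory but carried both lists. Its inhibitory markers summed to 1127 CPM in PS19 and 959 CPM in PZKO, and its excitatory markers to 908 and 921 CPM. Besides dentate granule, CA1 and CA3 cells, the tissue labelled hippocampus gave classes that carried cortical layer markers (upper-layer, deep-layer corticothalamic, near-projecting, layer 5 and layer 6b). The libraries differed in the size of classes. Upper-layer intratelencephalic neurons had 117 nuclei in PS19 and 262 in PZKO, while dentate granule cells had 1010 and 514. The part of such differences in the ratios below was not tested. UMIs were summed per class and library. A level is given in CPM of the class, and levels are compared between classes for the same gene, never between genes, since a longer gene yields more nuclear UMIs. Intervals are exact and cover counting error only. The 10 choroid plexus markers summed in microglia to 829.7 CPM in PS19 and 116 CPM in PZKO, and the part of RNA free in the suspension in the levels below was not tested beyond the subtraction reported with the alternatives. Positions are those of mm10 in the GENCODE M21 annotation.

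Of the 40 members, 34 had at least 100 UMIs over both libraries, and 19 span at least 100 kb, against 8.70% of all genes. Most of them were far from evenly spread over the classes. Among the 32 members with at least 100 UMIs in each library, the order of the 33 classes was alike in both libraries, with a Spearman coefficient of 0.937 at the median and of at least 0.9 for 20 members (lowest 0.15, highest 0.986), which is a description over classes that share a library and its depth. For those of these members with UMIs in each of the 20 neuron classes compared, the highest class was a median of 36.5-fold above the lowest. Members with a neuron class at 0 have no such fold, some of the others lay at few CPM, and no such median was taken over all genes. A member was said to mark a class where that class had its highest level in both libraries, at least 2-fold above the next class in each, with at least 50 UMIs. By this rule 9 members marked 7 classes, against 14.2% of all genes with as many UMIs. Within neuron classes alone 1 member did so (3.07% of all genes), and within non-neuronal classes 13 did so in 8 classes (16.8% of all genes). The 1 member of a neuron class was *Cdh4*, a share near that of all genes.

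**Figure D1:**
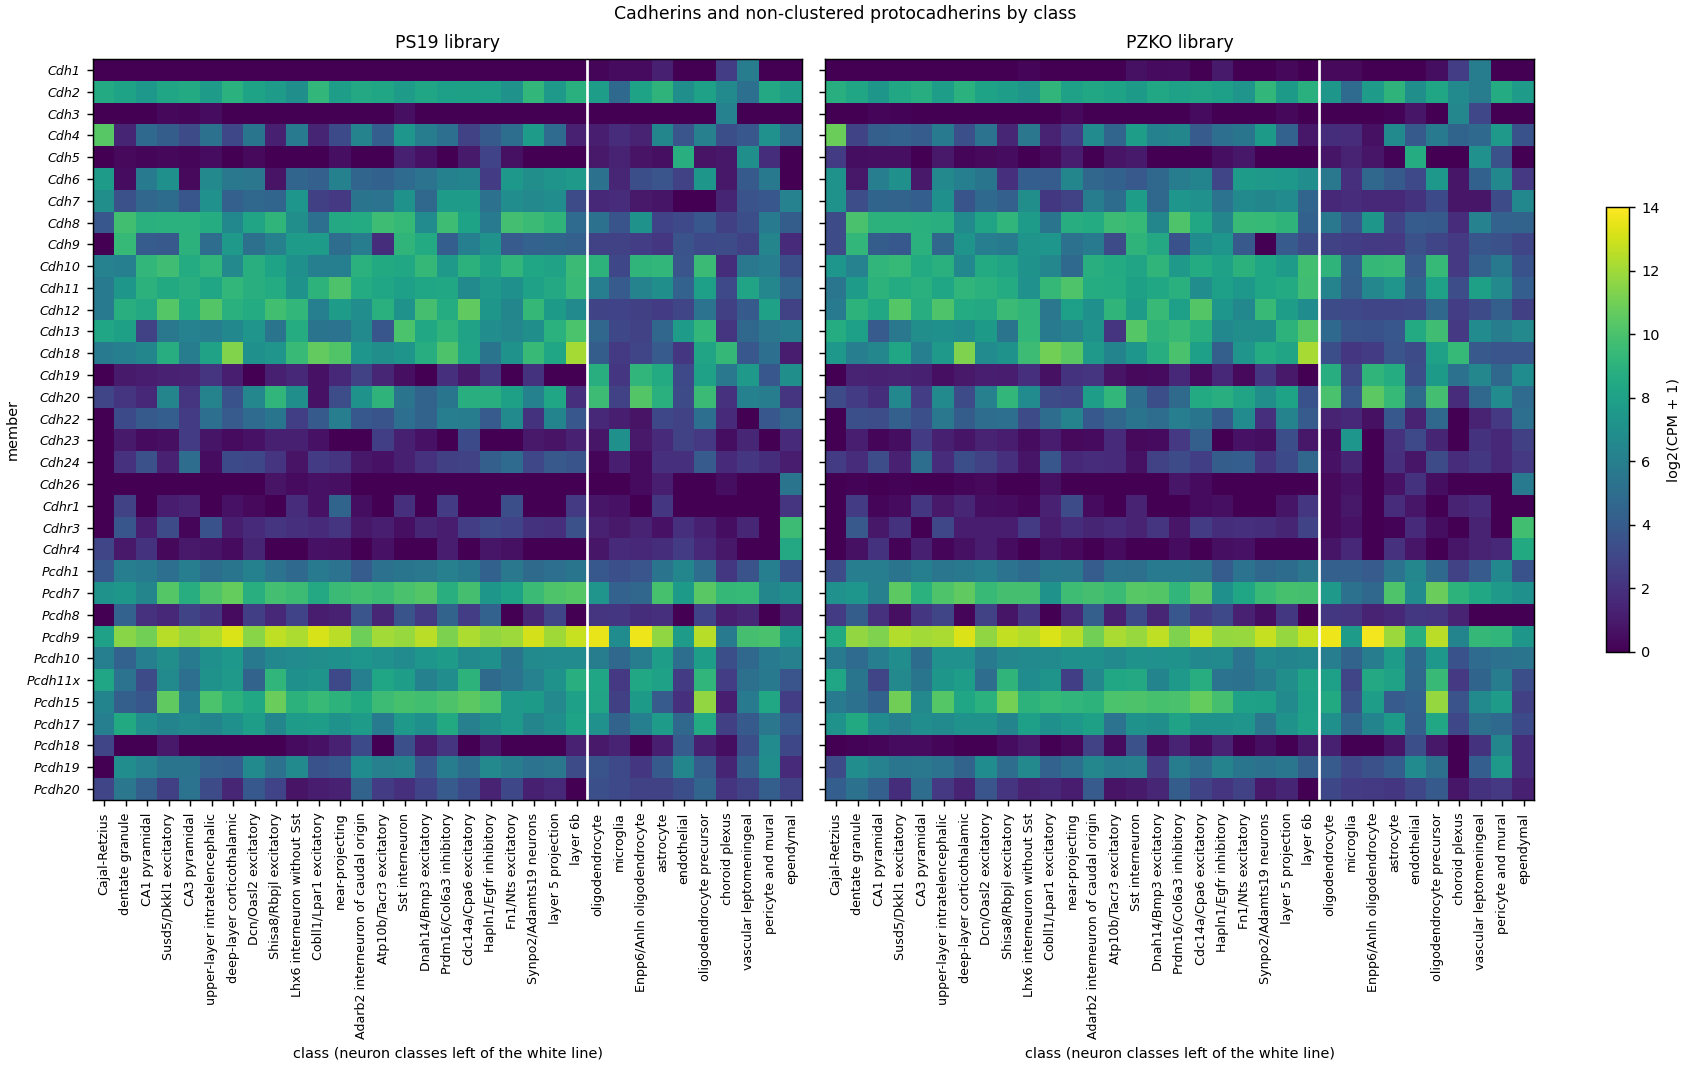
Level of the 34 members with at least 100 UMIs (rows) in each of the 33 classes (columns) of the PS19 library (left) and the PZKO library (right), as log2(CPM + 1) in colour, with neuron classes left of the white line. *Cdhr3* is bright in the ependymal column (786 and 871 CPM) and *Cdh5* in the endothelial column (434 and 401 CPM), while *Cdh2* and *Pcdh9* have colour in every column.

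The type I classical cadherins ranged from genes of 1 non-neuronal class to a gene of every class. *Cdh5*, which is grouped with type II by sequence, is given beside them as a junction protein. *Cdh1* (E-cadherin, the junction protein of epithelia; ENSMUSG00000000303, chromosome 8, 106603351 to 106670246) was found in vascular leptomeningeal cells at 57.7 CPM in PS19 and 57.6 CPM in PZKO, 12.1-fold above the next class in either library. *Cdh3* (P-cadherin; ENSMUSG00000061048, chromosome 8, 106510891 to 106557297) was found in the choroid plexus at 73.7 CPM in PS19 and 88.4 CPM in PZKO, with 170 and 111 of its 191 and 153 UMIs there. *Cdh5* (VE-cadherin, the protein of endothelial junctions; ENSMUSG00000031871, chromosome 8, 104101625 to 104144511) reached 434 CPM in PS19 and 401 CPM in PZKO in endothelial cells, 3.48- and 2.97-fold above vascular leptomeningeal cells. *Cdh2* (N-cadherin, which holds synapses and neural epithelia together) was found instead in every class, highest in Cobll1/Lpar1 excitatory neurons (627 CPM in PS19 and 593 CPM in PZKO) and Synpo2/Adamts19 neurons (627 CPM in PS19 and 605 CPM in PZKO), and lowest in microglia at 26.98 CPM in PS19 and 28.2 CPM in PZKO. Outside neurons it was highest in astrocytes, with 547 CPM in PS19 and 555 CPM in PZKO. *Cdh4* (R-cadherin; ENSMUSG00000000305, chromosome 2, 179442431 to 179899373) was highest in Cajal-Retzius neurons, the reelin-producing cells of the marginal zone, at 1293 CPM in PS19 and 1825 CPM in PZKO. That was 6.04-fold above Synpo2/Adamts19 neurons in PS19 (95% interval 5.09 to 7.14) and 8.02-fold above Sst interneurons in PZKO (7.13 to 9.02), on 28 and 30 nuclei. Its level in CA3 pyramidal cells was 8.24 CPM in PS19 and 15.8 CPM in PZKO. *Cdh15* (M-cadherin of muscle) had 40 and 50 UMIs in all.

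Ependymal cells, whose beating cilia move the cerebrospinal fluid, were marked by 3 members. *Cdhr3*, known from ciliated airway cells as the receptor of a rhinovirus (ENSMUSG00000035860, chromosome 12, 33033796 to 33092875), had 666 of its 1057 UMIs in PS19 and 667 of 1108 in PZKO in this class, at 786 CPM in PS19 and 871 CPM in PZKO. The next class, dentate granule cells, lay at 12.6 CPM in PS19 and 13.9 CPM in PZKO, a distance of 62.2- and 62.8-fold. *Cdhr4* (ENSMUSG00000032595, chromosome 9, 107992497 to 107999684) followed at 346 CPM in PS19 and 363 CPM in PZKO, and *Cdh26* (ENSMUSG00000039155, chromosome 2, 178430531 to 178487366) at 40.1 CPM in PS19 and 52.2 CPM in PZKO on 34 and 40 UMIs. Within non-neuronal classes *Cdh7* joined these 3, at 73.1 CPM in PS19 and 91.4 CPM in PZKO. Since RFX and forkhead factors (FOXJ1 among them) are known regulators of ciliary genes, the starts of the 3 genes are printed to show what stands there, from 250 bases before to 50 bases after the start of the transcript (RefSeq, GRCm38.p6, 5′ to 3′ on the gene's strand). Capitals mark matches to an RFX half-site, GTTGCC on either strand, which reads GGCAAC on the other. The windows are chr2:178430265-178430564 (+), chr12:33092826-33093125 (-) and chr9:107992207-107992506 (+).
Cdh26: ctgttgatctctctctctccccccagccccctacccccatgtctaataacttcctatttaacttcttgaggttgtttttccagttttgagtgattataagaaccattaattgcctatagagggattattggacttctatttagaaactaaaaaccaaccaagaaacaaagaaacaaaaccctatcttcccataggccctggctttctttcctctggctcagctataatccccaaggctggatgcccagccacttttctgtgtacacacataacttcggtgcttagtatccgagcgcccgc
Cdhr3: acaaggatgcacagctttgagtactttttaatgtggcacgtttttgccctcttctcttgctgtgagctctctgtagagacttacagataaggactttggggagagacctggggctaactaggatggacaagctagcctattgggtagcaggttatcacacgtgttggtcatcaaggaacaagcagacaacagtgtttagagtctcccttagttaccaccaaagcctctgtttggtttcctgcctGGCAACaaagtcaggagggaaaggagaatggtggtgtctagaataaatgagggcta
Cdhr4: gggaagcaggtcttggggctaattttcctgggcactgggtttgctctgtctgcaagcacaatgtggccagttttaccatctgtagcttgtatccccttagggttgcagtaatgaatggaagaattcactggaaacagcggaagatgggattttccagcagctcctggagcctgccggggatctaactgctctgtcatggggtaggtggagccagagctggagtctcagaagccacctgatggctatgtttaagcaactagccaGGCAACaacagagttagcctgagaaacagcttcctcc
The match in *Cdhr3* begins 6 bases before the transcript start and that in *Cdhr4* at base 14 of the transcript, both on the reverse strand, and the *Cdh26* window holds no such letters. These were the only 2 of the 30 member promoters with a match (27 of 40 members had an entry), against 12.5% of all 32851 promoters of that length. The forkhead letters TGTTTAC, which on the other strand read GTAAACA, were in none of the 30 and in 3.65% of all. A match is a description of the letters and shows no binding.

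Type II classical cadherins, whose binding is more graded and which are known for their part in sorting neurons and in synapses, were mostly neuronal and overlapped. *Cdh18* (ENSMUSG00000040420, chromosome 15, 22549022 to 23474418) was highest in layer 6b neurons at 4496 CPM in PS19 and 4607 CPM in PZKO, ahead of deep-layer corticothalamic neurons at 2590.5 CPM in PS19 and 2499.6 CPM in PZKO. *Cdh11* (OB-cadherin) led in near-projecting neurons at 1077 CPM in PS19 and 1152 CPM in PZKO. *Cdh12* was highest in PS19 in Cdc14a/Cpa6 excitatory neurons (1521 CPM in PS19 and 1209 CPM in PZKO) and in PZKO in Susd5/Dkkl1 excitatory neurons (1277 CPM in PS19 and 1246 CPM in PZKO). Several other members also had a different highest class in each library. *Cdh10* alternated between Susd5/Dkkl1 excitatory neurons (835 CPM in PS19 and 669 CPM in PZKO) and layer 6b neurons (751 CPM in PS19 and 852 CPM in PZKO), and *Cdh8* between Fn1/Nts excitatory neurons (908 CPM in PS19 and 678 CPM in PZKO) and Prdm16/Col6a3 inhibitory neurons (789.7 CPM in PS19 and 1123 CPM in PZKO). *Cdh6* (K-cadherin) did so between Cajal-Retzius neurons (203 CPM in PS19 and 139 CPM in PZKO) and Fn1/Nts excitatory neurons (177 CPM in PS19 and 215 CPM in PZKO), and *Cdh7* between Cdc14a/Cpa6 excitatory neurons (209 CPM in PS19 and 134 CPM in PZKO) and Sst interneurons (139.7 CPM in PS19 and 218 CPM in PZKO). *Cdh9*, needed for the mossy fibre synapses that dentate granule cells make on CA3, was highest in dentate granule cells at 665 CPM in PS19 and 616 CPM in PZKO. It stood at 509 CPM in PS19 and 489 CPM in PZKO in CA3 and at 15.96 CPM in PS19 and 16.6 CPM in PZKO in CA1, so both partners of that synapse had it and CA1 was low in both libraries.

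The low-count type II members and those of oligodendrocytes completed this group. *Cdh24* was highest in CA3 pyramidal cells at 31.5 CPM in PS19 and 32.1 CPM in PZKO, and *Cdh22* in Fn1/Nts excitatory neurons at 105 CPM in PS19 and 108 CPM in PZKO. *Cdh19* and *Cdh20* were led by a non-neuronal class, the Enpp6/Anln oligodendrocytes. *Enpp6*, a marker of newly formed oligodendrocytes, was among their leading genes beside *Anln* and *Hapln2*. The 9 oligodendrocyte markers summed to 20488 CPM in PS19 and 19180 CPM in PZKO there. In the other oligodendrocytes they summed to 19579 CPM in PS19 and 18473 CPM in PZKO, and the stage of the class was not tested. *Cdh20* lay in the Enpp6/Anln class at 1228 CPM in PS19 and 1418 CPM in PZKO and in the other oligodendrocytes at 785 CPM in PS19 and 999 CPM in PZKO. *Cdh19* lay at 603 CPM in PS19 and 574 CPM in PZKO and at 431 CPM in PS19 and 418.5 CPM in PZKO in the same classes, and at no more than 5.75 CPM in any neuron class. Within non-neuronal classes *Cdh8* marked the Enpp6/Anln oligodendrocytes (143 CPM in PS19 and 168 CPM in PZKO) and *Cdh18* the choroid plexus (628 CPM in PS19 and 662 CPM in PZKO).

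*Cdh13* (T-cadherin) is anchored by a lipid and has no cytoplasmic tail for catenins (ENSMUSG00000031841, chromosome 8, 118283733 to 119324921). It was highest in layer 6b neurons (1056 CPM in PS19 and 1202 CPM in PZKO) and Sst interneurons (1049 CPM in PS19 and 1251 CPM in PZKO), at 248.8 CPM in PS19 and 239.5 CPM in PZKO in dentate granule cells and at 5.85 CPM in PS19 and 15.2 CPM in PZKO in CA1 pyramidal cells. Outside neurons it marked oligodendrocyte precursors at 624 CPM in PS19 and 820.04 CPM in PZKO, above endothelial cells at 216 CPM in PS19 and 372 CPM in PZKO. *Cdh23* and *Pcdh15* are the partners that form the tip link of sensory hair cells. They were not highest in the same class here. *Cdh23* (ENSMUSG00000012819, chromosome 10, 60302748 to 60696490) marked microglia at 129 CPM in PS19 and 165 CPM in PZKO, 16.5- and 9.22-fold above Cdc14a/Cpa6 excitatory neurons, while *Pcdh15* (ENSMUSG00000052613, chromosome 10, 73099342 to 74649737) was highest in oligodendrocyte precursors at 3397 CPM in PS19 and 3582 CPM in PZKO. *Pcdh15* in microglia was 5.21 CPM in PS19 and 10.1 CPM in PZKO, and among neurons it was highest in Shisa8/Rbpjl excitatory neurons at 1804 CPM in PS19 and 2118 CPM in PZKO.

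The delta protocadherins fall into a group with *Pcdh1*, *Pcdh7*, *Pcdh9* and *Pcdh11x* (delta1) and one with *Pcdh8*, *Pcdh10*, *Pcdh17*, *Pcdh18* and *Pcdh19* (delta2). *Pcdh9* was highest in Enpp6/Anln oligodendrocytes at 12613 CPM in PS19 and 13729 CPM in PZKO, and its lowest class was the choroid plexus at 55.04 CPM in PS19 and 78.9 CPM in PZKO. *Pcdh11x* was highest in oligodendrocyte precursors at 587 CPM in PS19 and 688 CPM in PZKO. *Pcdh7* was highest in deep-layer corticothalamic neurons in PS19 (1677 CPM in PS19 and 1514 CPM in PZKO) and in oligodendrocyte precursors in PZKO (1372 CPM in PS19 and 1815 CPM in PZKO). *Pcdh1* was highest in endothelial cells (85.3 CPM in PS19 and 89.04 CPM in PZKO) and in pericytes and mural cells (64.8 CPM in PS19 and 92.5 CPM in PZKO). Of the delta2 group, *Pcdh18* marked pericytes and mural cells at 106 CPM in PS19 and 86.5 CPM in PZKO on 41 and 43 UMIs, and *Pcdh19*, the gene of an X-linked epilepsy, was highest there too, at 124 CPM in PS19 and 189 CPM in PZKO. *Pcdh17* was highest in oligodendrocyte precursors in PS19 (373 CPM in PS19 and 319 CPM in PZKO) and in dentate granule cells in PZKO (359 CPM in PS19 and 358 CPM in PZKO), and *Pcdh10* in oligodendrocyte precursors (231 CPM in PS19 and 177 CPM in PZKO) and astrocytes (218 CPM in PS19 and 212 CPM in PZKO). *Pcdh8* was at 20.9 CPM in PS19 and 12.7 CPM in PZKO in Prdm16/Col6a3 inhibitory neurons and at 11.9 CPM in PS19 and 18.2 CPM in PZKO in Adarb2 interneurons, its highest class in either library. *Pcdh20*, which is placed with neither group here, was highest in dentate granule cells at 45.97 CPM in PS19 and 38.5 CPM in PZKO. *Cdhr1* (photoreceptor cadherin) was highest in near-projecting neurons at 21.6 CPM in PS19 and 8.39 CPM in PZKO on few UMIs. Of the members with under 100 UMIs over both libraries, *Cdh16* (kidney cadherin) had 3 and 5, *Cdh17* (intestinal cadherin) 7 and 6, *Cdhr2* and *Cdhr5* (partners in the brush border of the intestine) 18 and 23 and 0 and 2, and *Pcdh12*, an endothelial protocadherin, 2 and 11, the last in endothelial cells in PS19 and in pericytes and mural cells in PZKO. The highest class of such a gene is named for completeness only: Prdm16/Col6a3 inhibitory neurons and vascular leptomeningeal cells for *Cdh16*, endothelial cells and Cobll1/Lpar1 excitatory neurons for *Cdh17*, layer 5 and Prdm16/Col6a3 inhibitory neurons for *Cdh15*, Shisa8/Rbpjl and Dnah14/Bmp3 excitatory neurons for *Cdhr2*, and Dcn/Oasl2 excitatory neurons in PZKO for *Cdhr5*.

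**Figure D2:**
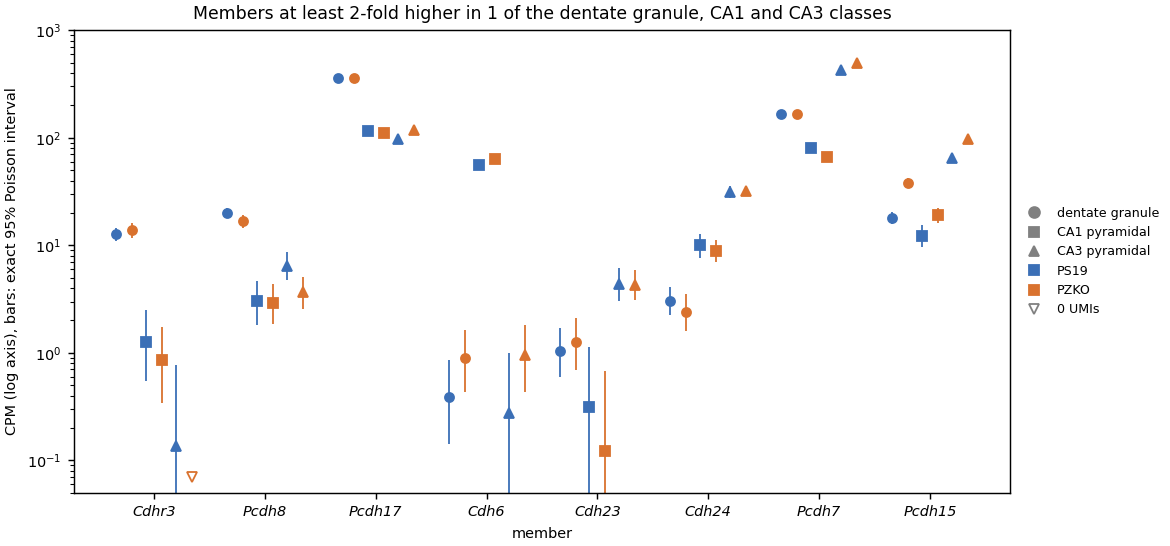
CPM (log axis) of the 8 members at least 2-fold higher in 1 of the dentate granule (circles), CA1 (squares) and CA3 (triangles) classes, with PS19 in blue, PZKO in orange, bars for the exact 95% Poisson interval and open downward triangles for 0 UMIs. *Cdh6* in CA1 (55.3 and 63.6 CPM) lies far above its other points, all under 1 CPM.

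Set against their nearest relatives alone, classes could be told apart by further members. These groups of related classes were chosen after the data had been seen. Among dentate granule, CA1 and CA3 cells, 8 of 27 members with at least 100 UMIs were at least 2-fold above the next of these classes in both libraries, against 9.32% of all genes with as many UMIs. *Cdh6* was the CA1 gene, at 55.3 CPM in PS19 and 63.6 CPM in PZKO against under 1 CPM in dentate granule and CA3 cells. Dentate granule cells led in *Cdhr3*, *Pcdh8* (19.9 CPM in PS19 and 16.7 CPM in PZKO) and *Pcdh17* (359 CPM in PS19 and 358 CPM in PZKO against 115 CPM in PS19 and 111 CPM in PZKO in CA1). CA3 pyramidal cells led in *Cdh23* (4.395 CPM in PS19 and 4.31 CPM in PZKO), *Cdh24*, *Pcdh7* (428 CPM in PS19 and 494 CPM in PZKO against 80.6 CPM in PS19 and 66.4 CPM in PZKO in CA1) and *Pcdh15* (64.4 CPM in PS19 and 96.7 CPM in PZKO).

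By the same rule, Sst interneurons led among the interneuron classes named from markers in *Cdh4* (162 CPM in PS19 and 227 CPM in PZKO), *Cdh9* (569 CPM in PS19 and 559 CPM in PZKO) and *Cdh22*, Lhx6 interneurons without Sst in *Cdh12* (623 CPM in PS19 and 597 CPM in PZKO) and *Cdh18* (721 CPM in PS19 and 773 CPM in PZKO), and Adarb2 interneurons of caudal origin in *Pcdh20* alone, of 24 members (4.91% of all genes led in 1 of these classes). Hapln1/Egfr and Prdm16/Col6a3 inhibitory neurons were left out of this group, so a lead here does not cover them. In PS19, *Cdh12* in Prdm16/Col6a3 neurons lay within 2-fold of its level in Lhx6 interneurons without Sst. In the oligodendrocyte lineage 12 of 22 members were at least 2-fold above the next class in precursors (12.9% of all genes), 1 (*Cdh8*) in Enpp6/Anln oligodendrocytes and 0 in the other oligodendrocytes (14.3% of all genes over the 3 classes). *Cdh19*, *Cdh20* and *Pcdh9* were highest in Enpp6/Anln oligodendrocytes by less than that. The widest steps from precursors to the next class were those of *Cdh4* (41.4- and 20.1-fold), *Cdh13* (26.2- and 31.1-fold) and *Cdh18* (17.5- and 27.4-fold). Vascular classes divided the members as well, with *Cdh5* and *Cdh13* in endothelial cells, *Cdh1*, *Cdh11* (290.1 CPM in PS19 and 248.9 CPM in PZKO) and *Cdh19* (180.4 CPM in PS19 and 89.9 CPM in PZKO) in vascular leptomeningeal cells, and *Cdh2*, *Cdh4* (132 CPM in PS19 and 187 CPM in PZKO), *Cdh6*, *Cdh12* and *Pcdh18* in pericytes and mural cells (10 of 21 members, 18.4% of all genes). *Cdh12* in pericytes rested in PS19 on 1 nucleus, which held 48 of the 100 UMIs.

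The comparison of PZKO with PS19 asked whether the members' levels in a class went with the loss of *Zbp1*. A member was compared in the 30 classes with at least 50 nuclei in each library where it had at least 100 UMIs over both, and was called where the ratio was at least 1.5-fold and the 95% interval lay on that side of 0. This is a rule of size and not a test between genotypes. Of 505 pairs of member and class (32 members), 41 were higher in PZKO (8.12%) and 26 lower (5.15%), against 2.29% and 4.26% of the pairs of all genes. Genes of at least 100 kb had their own background, 4.7% higher and 1.8% lower, and their median log2 ratio lay above 0 in every class compared (0.05 to 0.14), while that of all genes lay between −0.09 and 0.09. In neuron classes 28 of 391 pairs were higher and 17 lower (all genes 2.24% and 3.93%, long genes 4.25% and 1.6%), and in other classes 13 of 114 were higher and 9 lower (2.43% and 5.04%, long genes 5.79% and 2.27%). The median over the members' pairs was 0.05, and in 438 of the 505 pairs the libraries differed by less than 1.5-fold.

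The calls fell on 20 of the 32 members compared and in 26 of the 30 classes, and a number of them rested on few nuclei. *Cdh13* gave 10 of the 41 higher pairs, and *Pcdh15* and *Pcdh19* 4 each. In 27 of the 67 called pairs the call was lost once the 1 nucleus with most UMIs of the gene was left out from the library where the gene was higher, a comparison added after seeing the data, which left 25 higher and 15 lower. A set of 24 pairs, 17 higher and 7 lower, was called without that nucleus and under every other processing tried that gave a value, and these pairs are said below to hold throughout. No share of all genes that keep their call in these ways is given, so these counts stand without a background. Among the pairs that hold throughout, the subtraction of an ambient profile gave no value for *Pcdh9* in microglia and endothelial cells, *Pcdh7* in microglia, *Cdh13* in CA1 and *Pcdh15* in dentate granule cells. For these pairs the part of ambient RNA was not tested, and holding throughout does not cover it. The subtraction was set at an ambient share of 5%. Over all PS19 nuclei kept, *Pcdh9* lay at 4667 CPM, against 113 CPM in PS19 microglia and 205 CPM in PS19 endothelial cells. *Pcdh7* lay at 567 CPM, against 20.5 CPM in PS19 microglia. *Cdh13* lay at 155 CPM, against 5.85 CPM in CA1, and *Pcdh15* at 419 CPM, against 17.97 CPM in dentate granule cells. The stricter filter on nuclei and the clustering resolution of 0.5 also gave no value for some called pairs. Pairs in Cobll1/Lpar1 excitatory neurons had values under 9 other processings and those in microglia under 8, where most pairs had 10. In parentheses, values of PS19 stand before those of PZKO, and the log2 ratio of PZKO over PS19 is followed by its 95% interval. Counts of nuclei with a UMI are not corrected for depth, and the median nucleus was deeper in PZKO in every class. In CA1 the medians were 23631 and 31947.5 UMIs, and in oligodendrocyte precursors 6797 and 10326.5. Such counts can thus rise at an equal level.

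**Figure D3:**
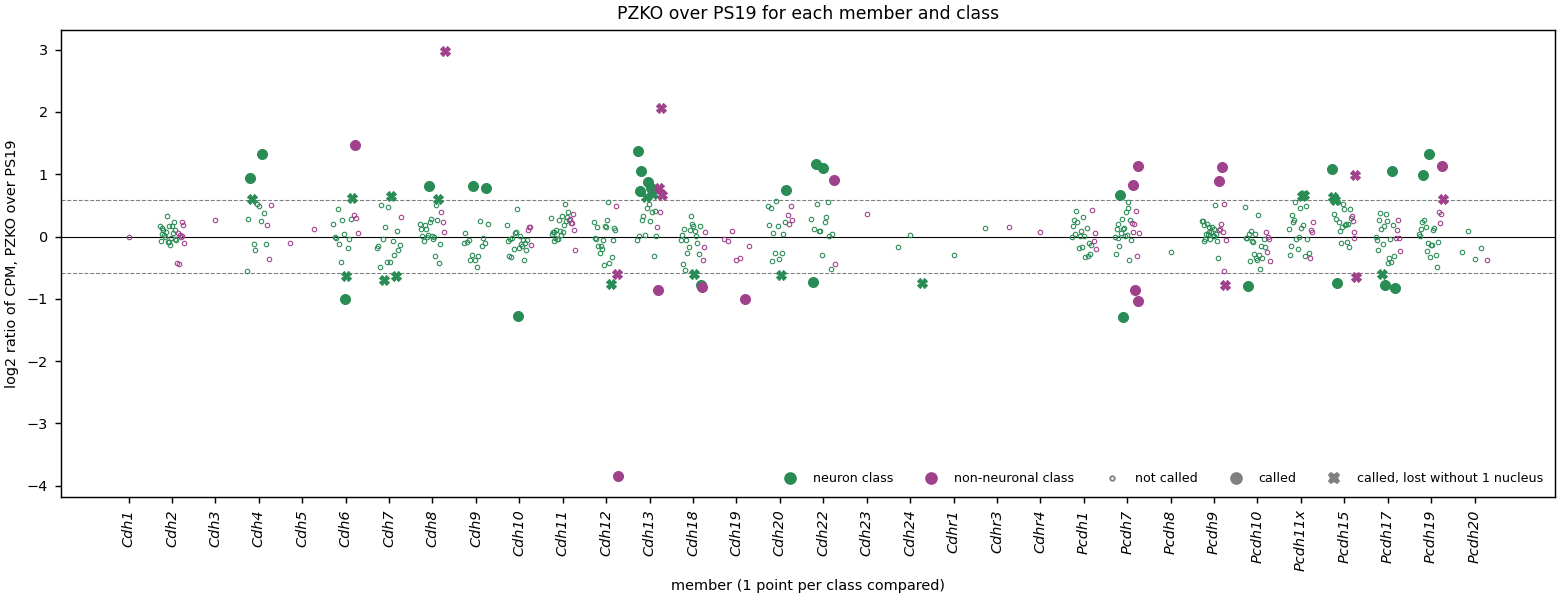
Log2 ratio of CPM, PZKO over PS19, for each of the 32 members compared, with 1 point per class (green for neuron classes, purple for others) and dashed lines at 1.5-fold. Large filled points are called pairs, crosses are called pairs lost without 1 nucleus, and small open points are not called; 10 of the *Cdh13* points are called above 0 and 1 below.

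*Cdh13* was called higher in PZKO in 7 neuron classes and 3 others, and lower in 1 class. CA1 pyramidal cells gave 5.85 CPM (37 UMIs) in PS19 against 15.2 CPM (125 UMIs) in PZKO and a log2 ratio of 1.38 (0.84 to 1.95), and these UMIs came from 21 of 263 nuclei in PS19 and 59 of 238 nuclei in PZKO. The log2 ratio in CA1 was 2.04 as a mean over nuclei and 0.75 at a clustering resolution of 0.5, and the ambient subtraction gave no value for it. CA3 pyramidal cells had 73.3 CPM (534 UMIs) in PS19 against 121 CPM (1155 UMIs) in PZKO and a log2 ratio of 0.73 (0.58 to 0.88). Upper-layer intratelencephalic neurons went from 62.4 CPM (170 UMIs) in PS19 to 129 CPM (1064 UMIs) in PZKO, for a log2 ratio of 1.05 (0.81 to 1.29). Near-projecting neurons did likewise, from 39.9 CPM (81 UMIs) in PS19 to 72.7 CPM (260 UMIs) in PZKO, for a log2 ratio of 0.87 (0.50 to 1.25), and these 4 pairs hold throughout. In Dnah14/Bmp3 excitatory neurons the level went from 324 CPM (548 UMIs) in PS19 to 559 CPM (1779 UMIs) in PZKO, for a log2 ratio of 0.79 (0.65 to 0.93). In Lhx6 interneurons without Sst it went from 406 CPM (1185 UMIs) in PS19 to 628 CPM (3375 UMIs) in PZKO, for a log2 ratio of 0.63 (0.53 to 0.72). In Cdc14a/Cpa6 excitatory neurons it went from 268 CPM (273 UMIs) in PS19 to 430.1 CPM (1295 UMIs) in PZKO, for a log2 ratio of 0.68 (0.49 to 0.88). The calls in the last pair of classes were lost without 1 nucleus, at log2 ratios of 0.57 and 0.57, just short of the 0.585 that 1.5-fold amounts to, and that in Dnah14/Bmp3 neurons was lost as a mean over nuclei (0.55). Other processings went lower, to 0.45 in Lhx6 interneurons (8 of 10 kept the call) and 0.18 in Cdc14a/Cpa6 neurons (8 of 9). Dentate granule cells, the highest of these hippocampal classes in *Cdh13*, were near equal, with 248.8 CPM (3820 UMIs) in PS19 against 239.5 CPM (2676 UMIs) in PZKO and a log2 ratio of −0.05 (−0.13 to 0.02).

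Outside neurons *Cdh13* was lower in PZKO astrocytes, with 23.8 CPM (193 UMIs) in PS19 against 13.2 CPM (146 UMIs) in PZKO and a log2 ratio of −0.85 (−1.17 to −0.54). This pair holds throughout, and the astrocyte class was made of 2 clusters of which one held 493 and 660 nuclei and the other, led by *A2m* and *Osmr* among others, 590 and 506, so that different clusters held most of it in the 2 libraries, and with equal weight for both clusters the log2 ratio was −0.73. With an ambient profile subtracted it was −2.47. Endothelial cells had the opposite direction, from 216 CPM (233 UMIs) in PS19 to 372 CPM (484 UMIs) in PZKO, for a log2 ratio of 0.78 (0.55 to 1.01), and ependymal cells too, from 58.98 CPM (50 UMIs) in PS19 to 93.97 CPM (72 UMIs) in PZKO, for a log2 ratio of 0.67 (0.13 to 1.22). Neither was still called without 1 nucleus (0.56 and 0.48). Vascular leptomeningeal cells gave the highest ratio of the gene, with 26.04 CPM (14 UMIs) in PS19 against 108 CPM (141 UMIs) in PZKO and a log2 ratio of 2.06 (1.26 to 2.96), but 105 of the 141 UMIs were in 1 nucleus, and without it the log2 ratio was 0.13.

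**Figure D4:**
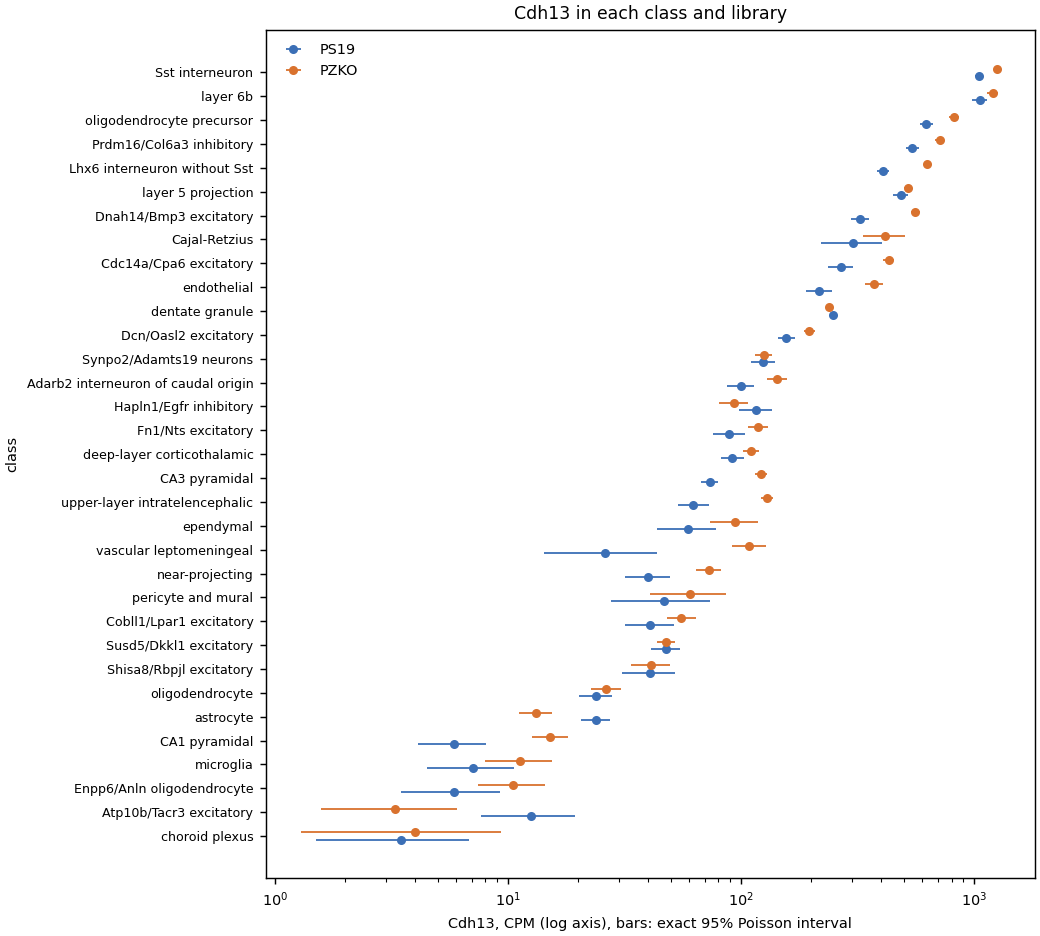
*Cdh13* in CPM (log axis) in each of the 33 classes, ordered by its level, for PS19 (blue) and PZKO (orange), with exact 95% Poisson intervals as bars. CA1 pyramidal cells sit near the bottom at 5.85 and 15.2 CPM, and in astrocytes the PZKO point lies below that of PS19.

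Of the type I cadherins, *Cdh4* was called, and higher in PZKO in all 3 classes concerned. CA3 pyramidal cells had 8.24 CPM (60 UMIs) in PS19 against 15.8 CPM (150 UMIs) in PZKO and a log2 ratio of 0.94 (0.50 to 1.39). Prdm16/Col6a3 inhibitory neurons had 33.7 CPM (58 UMIs) in PS19 against 84.5 CPM (213 UMIs) in PZKO and a log2 ratio of 1.33 (0.90 to 1.77). These pairs hold throughout, with UMIs in 36 of 201 against 57 of 181 CA3 nuclei. Upper-layer intratelencephalic neurons went from 36.3 CPM (99 UMIs) in PS19 to 55.3 CPM (457 UMIs) in PZKO, for a log2 ratio of 0.61 (0.29 to 0.94), which fell short without 1 nucleus (log2 ratio 0.56). Of the other processings, 5 of 10 kept that call, and the lowest log2 ratio was 0.40. *Cdh2* was compared in 29 classes and called in 0, with log2 ratios from −0.43 to 0.33. The junction cadherins kept within 1.5-fold in their own class. *Cdh5* in endothelial cells had a log2 ratio of −0.11 (95% interval −0.29 to 0.07), *Cdh3* in the choroid plexus 0.26 (−0.10 to 0.62) and *Cdh1* in vascular leptomeningeal cells 0.00 (−0.62 to 0.65), an interval wide enough to hold a 1.5-fold difference either way.

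Among type II cadherins *Cdh22* was higher in PZKO in 3 classes and lower in 1. CA3 pyramidal cells had 4.395 CPM (32 UMIs) in PS19 against 9.88 CPM (94 UMIs) in PZKO and a log2 ratio of 1.17 (0.58 to 1.80). CA1 pyramidal cells had the reverse, 14.5 CPM (92 UMIs) in PS19 against 8.75 CPM (72 UMIs) in PZKO and a log2 ratio of −0.73 (−1.20 to −0.27). The neighbouring fields of the hippocampus thus differed in direction for this gene, though the difference between them was not tested. Cobll1/Lpar1 excitatory neurons (25 and 111 UMIs, 14.5 and 30.96 CPM, log2 ratio 1.09, 0.46 to 1.78) and astrocytes (58 and 149 UMIs, 7.16 and 13.5 CPM, log2 ratio 0.91, 0.46 to 1.37) were both higher. All but the CA1 pair hold throughout, which was lost at a clustering resolution of 0.5 (−0.094).

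*Cdh8* was higher in 3 classes, 1 of which holds throughout, the Lhx6 interneurons without Sst with 119.97 CPM (350 UMIs) in PS19 against 209.6 CPM (1127 UMIs) in PZKO and a log2 ratio of 0.80 (0.63 to 0.98). In Hapln1/Egfr inhibitory neurons it went from 53.7 CPM (70 UMIs) in PS19 to 81.9 CPM (162 UMIs) in PZKO, for a log2 ratio of 0.61 (0.19 to 1.03), and in vascular leptomeningeal cells from 9.299 CPM (5 UMIs) in PS19 to 72.97 CPM (95 UMIs) in PZKO, for a log2 ratio of 2.97 (1.70 to 4.63). In the latter 76 of the 95 UMIs in PZKO were in 1 nucleus. Without the top nucleus the log2 ratios of these 2 pairs were 0.41 and 0.69, and neither was called. *Cdh9* was higher in Dcn/Oasl2 excitatory neurons (121 and 431 UMIs, 35.5 and 62.3 CPM, log2 ratio 0.81, 0.52 to 1.11) and in Cdc14a/Cpa6 excitatory neurons (66 and 335 UMIs, 64.8 and 111 CPM, log2 ratio 0.78, 0.40 to 1.18), both of which were still called without 1 nucleus but not with doublets kept (0.46 and 0.43). In dentate granule cells, its highest class, *Cdh9* was near equal, with 665 CPM (10206 UMIs) in PS19 against 616 CPM (6886 UMIs) in PZKO and a log2 ratio of −0.11 (−0.15 to −0.06).

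*Cdh6* was called in both directions. It was higher in PZKO in Enpp6/Anln oligodendrocytes (28 and 91 UMIs, 9.11 and 25.2 CPM, log2 ratio 1.47, 0.84 to 2.14) and in Synpo2/Adamts19 neurons (262 and 794 UMIs, 119 and 183 CPM, log2 ratio 0.62, 0.42 to 0.83). It was lower in Sst interneurons (61 and 54 UMIs, 28.2 and 14.04 CPM, log2 ratio −1.01, −1.56 to −0.46) and in Dnah14/Bmp3 excitatory neurons (66 and 80 UMIs, 39.04 and 25.1 CPM, log2 ratio −0.63, −1.12 to −0.14). The pairs in Enpp6/Anln oligodendrocytes and Sst interneurons were still called without 1 nucleus, the other two were not. With doublets kept the call in Enpp6/Anln oligodendrocytes was lost (0.55), and under the stricter filter that in Sst interneurons was (−0.56). In CA1, where *Cdh6* told CA1 from dentate granule and CA3 cells, it was not called, with 55.3 CPM (350 UMIs) in PS19 against 63.6 CPM (523 UMIs) in PZKO and a log2 ratio of 0.20 (0.00 to 0.40). *Cdh7* was higher in Sst interneurons (302 and 840 UMIs, 139.7 and 218 CPM, log2 ratio 0.64, 0.45 to 0.84) and lower in deep-layer corticothalamic neurons (61 and 62 UMIs, 18.7 and 11.6 CPM, log2 ratio −0.69, −1.23 to −0.16) and Cdc14a/Cpa6 excitatory neurons (213 and 404 UMIs, 209 and 134 CPM, log2 ratio −0.64, −0.88 to −0.39). None of the 3 calls held without 1 nucleus, with log2 ratios of 0.58, −0.47 and −0.51.

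Other type II members were called in the lower direction alone. *Cdh10* was lower in near-projecting neurons, its lowest neuron class in PZKO, with 64.9 CPM (132 UMIs) in PS19 against 26.9 CPM (96 UMIs) in PZKO and a log2 ratio of −1.27 (−1.67 to −0.88), which holds throughout. Over the processings its size was far from fixed, with the log2 ratio between −2.71 (members among the variable genes) and −0.78 (mean over nuclei). *Cdh18* was lower in Synpo2/Adamts19 neurons (1503 and 1722 UMIs, 682 and 397 CPM, log2 ratio −0.78, −0.88 to −0.68), which also holds throughout and was seen in nearly every nucleus of the class (56 of 57 and 68 of 70). The same gene was lower in oligodendrocytes (102 and 64 UMIs, 16.4 and 9.34 CPM, log2 ratio −0.82, −1.29 to −0.35) and in Atp10b/Tacr3 excitatory neurons (191 and 240 UMIs, 119 and 78.6 CPM, log2 ratio −0.60, −0.88 to −0.32), the latter only with all nuclei. Oligodendrocytes were led in PS19 by a cluster of 1286 and 664 nuclei and in PZKO by one of 518 and 919, and a further small cluster of the class held 9 and 17. With equal weight of clusters the log2 ratio was −0.43, no longer 1.5-fold, nor was it as a mean over nuclei (−0.58). *Cdh12* was lower in Prdm16/Col6a3 inhibitory neurons (699 and 606 UMIs, 406 and 240.5 CPM, log2 ratio −0.76, −0.92 to −0.60), in oligodendrocyte precursors (58 and 59 UMIs, 39.03 and 25.7 CPM, log2 ratio −0.60, −1.15 to −0.06) and in pericytes and mural cells (100 and 9 UMIs, 259 and 18.1 CPM, log2 ratio −3.84, −5.01 to −2.86), each with a single nucleus of weight. Without it the log2 ratios were −0.48, −0.15 and −3.03, and the last alone was still called, though it turned to 0.60 under a stricter filter on nuclei. *Cdh19* was lower in vascular leptomeningeal cells, from 43 of 112 nuclei in PS19 to 48 of 194 in PZKO, with 180.4 CPM (97 UMIs) in PS19 against 89.9 CPM (117 UMIs) in PZKO and a log2 ratio of −1.01 (−1.41 to −0.60), and this holds throughout.

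The remaining type II genes gave 3 calls. *Cdh20* was higher in Synpo2/Adamts19 neurons (156 and 515 UMIs, 70.8 and 119 CPM, log2 ratio 0.74, 0.48 to 1.01), which holds throughout, and lower in Prdm16/Col6a3 inhibitory neurons (72 and 69 UMIs, 41.8 and 27.4 CPM, log2 ratio −0.61, −1.11 to −0.11), which did not hold without 1 nucleus. *Cdh24* was lower in Fn1/Nts excitatory neurons (53 and 60 UMIs, 29.1 and 17.4 CPM, log2 ratio −0.74, −1.30 to −0.18), with a log2 ratio of −0.54 without 1 nucleus. *Cdh11* was called in 0 of 26 classes, with log2 ratios from −0.22 to 0.53. Synpo2/Adamts19 neurons, which have *Lef1* and *Tcf7l2* among their leading genes, held 4 calls of members in all (19 compared, with 2.41% of all genes higher and 3.87% lower there), 3 of which (*Cdh18*, *Cdh20* and *Pcdh17*) hold throughout. Prdm16/Col6a3 inhibitory neurons also held 4 (20 compared, 2.85% and 6.8% of all genes), and that of *Cdh4* alone was kept without 1 nucleus.

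*Pcdh15* was the 1 member called in dentate granule cells, with 17.97 CPM (276 UMIs) in PS19 against 38.2 CPM (427 UMIs) in PZKO and a log2 ratio of 1.09 (0.87 to 1.31). These UMIs lay in 120 of 1010 nuclei in PS19 and in 107 of 514 in PZKO, of which 1 PZKO nucleus held 87, and without it the log2 ratio was 0.77, still called. This pair holds throughout, though the ambient subtraction gave no value for it. Markers of oligodendrocyte precursors, the class highest in *Pcdh15*, summed in dentate granule cells to 849 CPM in PS19 and 948 CPM in PZKO (7 markers, none under 3 UMIs in either library), and their part in the ratio was not tested. In CA3 pyramidal cells *Pcdh15* went from 64.4 CPM (469 UMIs) in PS19 to 96.7 CPM (920 UMIs) in PZKO, for a log2 ratio of 0.59 (0.42 to 0.75), and in CA1 pyramidal cells from 12.3 CPM (78 UMIs) in PS19 to 19.1 CPM (157 UMIs) in PZKO, for a log2 ratio of 0.63 (0.23 to 1.04). These 3 classes were thus all higher in PZKO with every nucleus counted, but the calls in CA3 and CA1 were lost without 1 nucleus (log2 ratios 0.48 and 0.29). Deep-layer corticothalamic neurons had the other direction, with 518 CPM (1686 UMIs) in PS19 against 309 CPM (1651 UMIs) in PZKO and a log2 ratio of −0.75 (−0.85 to −0.65), but at a clustering resolution of 0.5 that log2 ratio was −0.092 and not called. A pair of calls in vascular classes rested on 1 nucleus each, vascular leptomeningeal cells (28 and 135 UMIs, 52.1 and 104 CPM, log2 ratio 0.99, 0.40 to 1.64) and pericytes and mural cells (126 and 103 UMIs, 326 and 207 CPM, log2 ratio −0.66, −1.05 to −0.27), and both changed sign without it. In oligodendrocyte precursors *Pcdh15* was near equal, with 3397 CPM (5048 UMIs) in PS19 against 3582 CPM (8230 UMIs) in PZKO and a log2 ratio of 0.08 (0.03 to 0.13). Its hair-cell partner *Cdh23* had a log2 ratio of 0.35 in microglia (95% interval 0.17 to 0.54), below 1.5-fold.

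**Figure D5:**
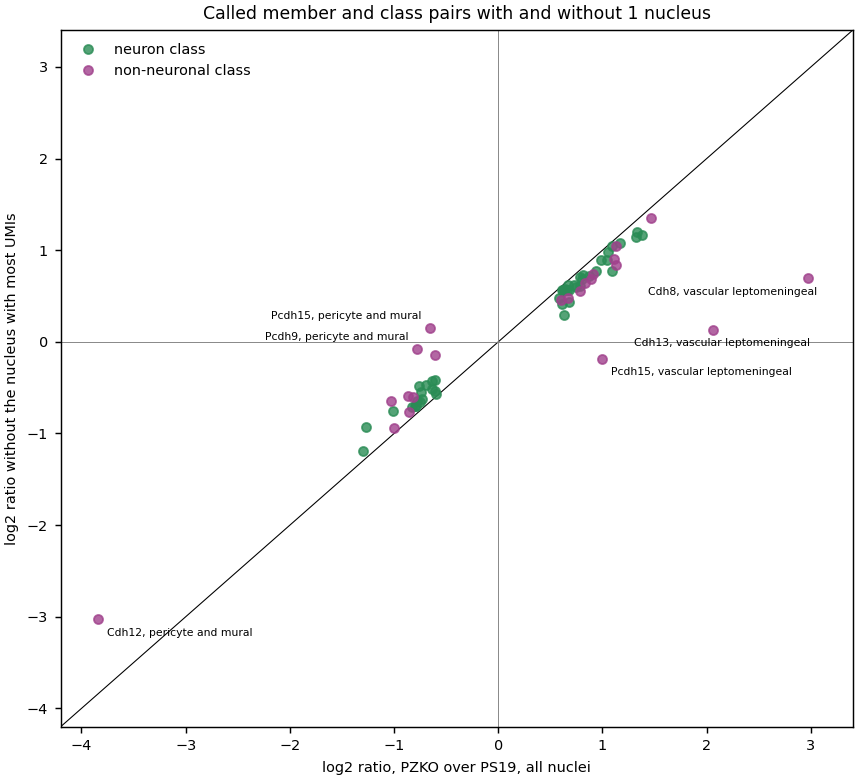
Log2 ratio of the 67 called pairs with all nuclei (x axis) and without the nucleus with most UMIs of the member (y axis), in green for neuron classes and purple for others, with a line of equality. Points far from the line are named and lie in pericytes and mural cells or vascular leptomeningeal cells, such as *Cdh13* at 2.06 and 0.13.

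The delta1 protocadherins were called in neuron, glial and vascular classes. Of all genes compared, 8.66% were higher and 8.77% lower in pericytes and mural cells, and 6.36% and 6.83% in vascular leptomeningeal cells. In microglia these shares were 2.14% and 3.74%, and in endothelial cells 2.81% and 2.37%. *Pcdh9* was higher in microglia, with 113 CPM (367 UMIs) in PS19 against 209 CPM (704 UMIs) in PZKO and a log2 ratio of 0.89 (0.71 to 1.08), and in endothelial cells, with 205 CPM (221 UMIs) in PS19 against 444 CPM (578 UMIs) in PZKO and a log2 ratio of 1.12 (0.89 to 1.35). Both pairs hold throughout, though the ambient subtraction gave no value for either. In microglia the share of nuclei with a UMI went from 169 of 947 to 267 of 758, at medians of 3313 and 4171 UMIs per nucleus. Enpp6/Anln oligodendrocytes and other oligodendrocytes are rich in *Pcdh9*, and the 9 oligodendrocyte markers summed to 1049 CPM in PS19 microglia and 909 CPM in PZKO microglia, and to 993 and 996 CPM in endothelial cells. The 7 markers of oligodendrocyte precursors summed to 33.7 CPM in PS19 and 44.5 CPM in PZKO microglia, and to 59.3 and 89.8 CPM in endothelial cells. The part of RNA from other classes in these ratios was not tested. In pericytes and mural cells *Pcdh9* was lower, from 1002 CPM (387 UMIs) in PS19 to 585 CPM (291 UMIs) in PZKO, for a log2 ratio of −0.78 (−1.0003 to −0.55), but near equal without the nucleus that held 169 UMIs (−0.08). *Pcdh7* was higher in microglia (67 and 123 UMIs, 20.5 and 36.5 CPM, log2 ratio 0.83, 0.39 to 1.28), which holds throughout though with no value from the ambient subtraction, in pericytes and mural cells (33 and 93 UMIs, 85.5 and 187 CPM, log2 ratio 1.13, 0.54 to 1.75) and in Dcn/Oasl2 excitatory neurons (1562 and 5053 UMIs, 458 and 730.5 CPM, log2 ratio 0.67, 0.59 to 0.76). It was lower in Cobll1/Lpar1 excitatory neurons (598 and 507 UMIs, 347 and 141 CPM, log2 ratio −1.30, −1.47 to −1.12), which holds throughout, and in endothelial (211 and 140 UMIs, 196 and 107 CPM, log2 ratio −0.86, −1.18 to −0.55) and vascular leptomeningeal cells (362 and 428 UMIs, 673 and 329 CPM, log2 ratio −1.03, −1.24 to −0.83). All 6 calls of *Pcdh7* were kept without 1 nucleus, but under a stricter filter on nuclei the log2 ratio in vascular leptomeningeal cells turned to 1.82 and that in pericytes and mural cells fell to 0.085. With doublets kept the calls in endothelial cells (−0.19, and −0.061 as a mean over nuclei) and Dcn/Oasl2 neurons (0.46, and 0.56 when centred on long genes) were lost. *Pcdh11x* was higher in Sst interneurons (471 and 1323 UMIs, 218 and 344 CPM, log2 ratio 0.66, 0.51 to 0.81) and Prdm16/Col6a3 inhibitory neurons (196 and 458 UMIs, 114 and 182 CPM, log2 ratio 0.67, 0.43 to 0.92), with neither call kept without 1 nucleus. *Pcdh1* was called in 0 of 22 classes, with log2 ratios from −0.33 to 0.43.

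Of the delta2 protocadherins, *Pcdh19* was higher in PZKO in every pair called. Upper-layer intratelencephalic neurons had 20.2 CPM (55 UMIs) in PS19 against 39.96 CPM (330 UMIs) in PZKO and a log2 ratio of 0.98 (0.57 to 1.42). Oligodendrocyte precursors had 16.2 CPM (24 UMIs) in PS19 against 35.3 CPM (81 UMIs) in PZKO and a log2 ratio of 1.13 (0.45 to 1.85), in 19 of 213 nuclei and 47 of 212. These 2 pairs hold throughout. Near-projecting neurons followed (27 and 119 UMIs, 13.3 and 33.3 CPM, log2 ratio 1.33, 0.71 to 1.99), still called without 1 nucleus but not with doublets kept (0.66), and pericytes and mural cells (48 and 94 UMIs, 124 and 189 CPM, log2 ratio 0.61, 0.09 to 1.14), not called without it. *Pcdh17* was lower in Cobll1/Lpar1 excitatory neurons (388 and 468 UMIs, 225 and 131 CPM, log2 ratio −0.79, −0.98 to −0.59) and Synpo2/Adamts19 neurons (179 and 199 UMIs, 81.2 and 45.8 CPM, log2 ratio −0.83, −1.12 to −0.53), both of which hold throughout. It was lower in Dcn/Oasl2 excitatory neurons as well (760 and 1018 UMIs, 223 and 147 CPM, log2 ratio −0.60, −0.74 to −0.46), at a log2 ratio of −0.57 without 1 nucleus, and higher in Cdc14a/Cpa6 excitatory neurons (68 and 416 UMIs, 66.8 and 138 CPM, log2 ratio 1.05, 0.68 to 1.44), though not with doublets kept (0.52). In dentate granule cells it was the same in both libraries, with 359 CPM (5507 UMIs) in PS19 against 358 CPM (4001 UMIs) in PZKO and a log2 ratio of 0.00 (−0.06 to 0.06). *Pcdh10* was lower in CA3 pyramidal cells (384 and 288 UMIs, 52.7 and 30.3 CPM, log2 ratio −0.80, −1.03 to −0.58), a call kept without 1 nucleus and lost at a clustering resolution of 0.5 (−0.501). *Pcdh8* and *Pcdh20* were not called, *Pcdh20* at a log2 ratio of −0.26 in dentate granule cells (95% interval −0.43 to −0.08) and −0.36 in CA3 (−0.59 to −0.12), and *Pcdh8* at −0.25 in dentate granule cells (−0.52 to 0.02). The Cdhr genes were compared in few classes and called in none, among them *Cdhr3* and *Cdhr4* in ependymal cells at 0.15 (−0.01 to 0.31) and 0.07 (−0.17 to 0.31) and *Cdhr1* in dentate granule cells at −0.30 (−0.82 to 0.21). *Cdh15*, *Cdh16*, *Cdh17*, *Cdh26*, *Cdhr2*, *Cdhr5*, *Pcdh12* and *Pcdh18* had too few UMIs in every class to be compared.

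The catenins and other cytoplasmic partners, through which classical cadherins act on actin, were called in 16 of 371 pairs of 17 genes, 11 higher and 5 lower in PZKO. Of the pairs of all genes 2.29% were higher and 4.26% lower, and of those of genes of at least 100 kb 4.7% and 1.8%. The calls are listed one by one and were not tested as a set. Removal of the top nucleus and the other processings were examined for calls of the members only. The calls here and in the lists below were not checked in that way. *Pkp4* (a plakophilin-like armadillo protein) was higher in oligodendrocyte precursors (149 and 507 UMIs, 100.3 and 221 CPM, log2 ratio 1.14, 0.87 to 1.41) and vascular leptomeningeal cells (148 and 570 UMIs, 275 and 438 CPM, log2 ratio 0.67, 0.41 to 0.94). *Magi2* (a scaffold of junctions and synapses) was higher in microglia (197 and 393 UMIs, 60.4 and 117 CPM, log2 ratio 0.95, 0.70 to 1.20) and endothelial cells (120 and 252 UMIs, 111 and 193 CPM, log2 ratio 0.80, 0.48 to 1.12) and lower in pericytes and mural cells (313 and 262 UMIs, 811 and 527 CPM, log2 ratio −0.62, −0.86 to −0.38). *Ctnna2*, the neuronal alpha-catenin, was higher in endothelial (18 and 85 UMIs, 16.7 and 65.2 CPM, log2 ratio 1.97, 1.22 to 2.79) and ependymal cells (120 and 212 UMIs, 142 and 277 CPM, log2 ratio 0.97, 0.64 to 1.30) and lower in pericytes and mural cells (144 and 72 UMIs, 373 and 145 CPM, log2 ratio −1.36, −1.79 to −0.95). Another alpha-catenin, *Ctnna3*, was higher in pericytes and mural cells (266 and 637 UMIs, 689 and 1282 CPM, log2 ratio 0.90, 0.69 to 1.11) and lower in Cdc14a/Cpa6 (231 and 380 UMIs, 227 and 126 CPM, log2 ratio −0.85, −1.09 to −0.60) and Synpo2/Adamts19 neurons (165 and 212 UMIs, 74.9 and 48.8 CPM, log2 ratio −0.62, −0.92 to −0.31). *Ctnna1*, the broadly expressed alpha-catenin, was higher in pericytes and mural cells (45 and 89 UMIs, 117 and 179 CPM, log2 ratio 0.62, 0.09 to 1.17) and lower in Dcn/Oasl2 neurons (71 and 82 UMIs, 20.8 and 11.9 CPM, log2 ratio −0.81, −1.29 to −0.33). *Ctnnal1* in ependymal cells (77 and 105 UMIs, 90.8 and 137 CPM, log2 ratio 0.59, 0.16 to 1.04), *Ctnnd1* (a catenin that keeps cadherins at the membrane) in Shisa8/Rbpjl neurons (67 and 188 UMIs, 45.3 and 68.3 CPM, log2 ratio 0.59, 0.18 to 1.02) and *Ctnnd2* (delta-catenin of neurons) in Enpp6/Anln oligodendrocytes (291 and 555 UMIs, 94.7 and 154 CPM, log2 ratio 0.70, 0.49 to 0.91) were higher. *Ctnnb1* (beta-catenin) was called in 0 of 25 classes, with a median log2 ratio of 0.06.

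Other genes of the cadherin superfamily, 20 in all, were called in 16 of 197 pairs, 12 higher and 4 lower (2.29% and 4.26% of the pairs of all genes, 4.7% and 1.8% for genes of at least 100 kb). *Clstn2*, a calsyntenin of synapses, was higher in oligodendrocytes (69 and 150 UMIs, 11.1 and 21.9 CPM, log2 ratio 0.98, 0.56 to 1.41), microglia (45 and 71 UMIs, 13.8 and 21.1 CPM, log2 ratio 0.61, 0.05 to 1.18), astrocytes (158 and 341 UMIs, 19.5 and 30.8 CPM, log2 ratio 0.66, 0.38 to 0.94) and Adarb2 interneurons (870 and 1792 UMIs, 385 and 615 CPM, log2 ratio 0.68, 0.56 to 0.79) and lower in pericytes and mural cells (115 and 45 UMIs, 298 and 90.5 CPM, log2 ratio −1.72, −2.25 to −1.21). *Dchs2* (a large cadherin, paired with Fat proteins) was higher in dentate granule cells (123 and 188 UMIs, 8.01 and 16.8 CPM, log2 ratio 1.07, 0.74 to 1.41) and Prdm16/Col6a3 neurons (86 and 258 UMIs, 49.97 and 102 CPM, log2 ratio 1.03, 0.68 to 1.40) and lower in Cdc14a/Cpa6 neurons (45 and 87 UMIs, 44.2 and 28.9 CPM, log2 ratio −0.61, −1.15 to −0.06). Of its known partners, *Fat4* was higher in vascular leptomeningeal (70 and 298 UMIs, 130.2 and 229 CPM, log2 ratio 0.81, 0.43 to 1.21) and CA3 cells (53 and 111 UMIs, 7.28 and 11.7 CPM, log2 ratio 0.68, 0.20 to 1.18), and *Fat3* in Sst interneurons (282 and 829 UMIs, 130.5 and 215 CPM, log2 ratio 0.72, 0.53 to 0.92). *Clstn3* was higher in Enpp6/Anln oligodendrocytes (55 and 97 UMIs, 17.9 and 26.9 CPM, log2 ratio 0.59, 0.10 to 1.09), *Dsg2* (a desmoglein) in deep-layer corticothalamic neurons (33 and 84 UMIs, 10.1 and 15.7 CPM, log2 ratio 0.63, 0.03 to 1.26) and *Celsr3* (a planar polarity cadherin) in Fn1/Nts neurons (36 and 103 UMIs, 19.8 and 29.9 CPM, log2 ratio 0.60, 0.04 to 1.19). *Celsr2* was lower in Cdc14a/Cpa6 neurons (67 and 98 UMIs, 65.8 and 32.5 CPM, log2 ratio −1.02, −1.48 to −0.54) and *Clstn1* in Hapln1/Egfr neurons (205 and 188 UMIs, 157 and 95.02 CPM, log2 ratio −0.73, −1.02 to −0.44).

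The 56 clustered protocadherins, which lie in one locus and give each neuron its own combination, were called higher in 3 and lower in 8 of 61 pairs (2.29% and 4.26% of the pairs of all genes). Genes of the gamma cluster share their last exons, so their 3′ counts are uncertain, and how the authors' counting treated reads in those exons was not examined. *Pcdhga11* was lower in oligodendrocytes (134 and 82 UMIs, 21.6 and 11.96 CPM, log2 ratio −0.85, −1.27 to −0.45), Enpp6/Anln oligodendrocytes (59 and 46 UMIs, 19.2 and 12.8 CPM, log2 ratio −0.59, −1.18 to −0.01), astrocytes (159 and 112 UMIs, 19.6 and 10.1 CPM, log2 ratio −0.96, −1.32 to −0.60) and dentate granule cells (164 and 71 UMIs, 10.7 and 6.35 CPM, log2 ratio −0.75, −1.17 to −0.34). In astrocytes *Pcdhga5* (84 and 72 UMIs, 10.4 and 6.501 CPM, log2 ratio −0.67, −1.15 to −0.20) and *Pcdhgc3* (187 and 163 UMIs, 23.1 and 14.7 CPM, log2 ratio −0.65, −0.96 to −0.34) were lower and *Pcdhb19* higher (62 and 134 UMIs, 7.65 and 12.1 CPM, log2 ratio 0.66, 0.22 to 1.12), which was lower in Sst interneurons (50 and 52 UMIs, 23.1 and 13.5 CPM, log2 ratio −0.78, −1.36 to −0.19). *Pcdhb9* was lower in oligodendrocyte precursors (52 and 50 UMIs, 34.99 and 21.8 CPM, log2 ratio −0.69, −1.27 to −0.10), *Pcdhb14* higher in Lhx6 interneurons without Sst (26 and 91 UMIs, 8.91 and 16.9 CPM, log2 ratio 0.93, 0.28 to 1.61) and *Pcdhga6* higher in dentate granule cells (51 and 62 UMIs, 3.32 and 5.55 CPM, log2 ratio 0.74, 0.18 to 1.30). Beside these counts stand those of ribosomal protein genes, lower in PZKO in 455 and higher in 3 of 1815 pairs, and of mitochondrially encoded genes, lower in 225 and higher in 10 of 358, and the part of this shift in the members' ratios was not tested.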

How the data were processed

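Nuclear RNA of pooled hippocampi was sequenced with 10x Genomics 3′ chemistry, and the authors deposited UMI counts per gene and nucleus for 1 PS19 and 1 PZKO library, unnormalised. The submitters' processing notes name Cell Ranger 7.0.1, Seurat and mm10, while the matrix header names Cell Ranger 8.0.1, and no ambient correction or filter of the study is carried by these counts. Nuclei with under 600 UMIs or 300 genes or over 5% mitochondrial UMIs were removed (185 and 845 in PS19, 121 and 690 in PZKO), then 876 and 821 predicted doublets, which left 100729375 UMIs in PS19 and 151995959 in PZKO. Per nucleus the PZKO library is deeper at the median in every class. Its UMIs summed per class are not higher in each of them (15356523 in PS19 and 11172968 in PZKO dentate granule cells), and intervals follow the UMIs of the class.

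Nuclei were clustered together, with no integration, in Python 3.11.15 with scanpy 1.11.5 and leidenalg 0.10.2 (2000 variable genes without the members, 30 components, 20 neighbours, resolution 1), and the 7146 neuron nuclei were clustered again. The second clustering, the thresholds for naming (a score of at least 0.5, a lead of at least 0.1, a marker among the top 30 genes) and the related-class groups were set after clusters had been seen. Clusters left without a name held 4.20% of PS19 and 3.37% of PZKO nuclei. A name rebuilt in this way can differ from the study's. Counts were summed per class and library, CPM carry exact Poisson intervals, and ratios carry exact conditional binomial (Clopper-Pearson) intervals; the scripts were tested on simulated data. Alternatives were edgeR 4.0.16 and DESeq2 1.42.0 size factors (R 4.3.3), centring on genes of at least 100 kb, means over nuclei, subtraction of an ambient profile, a minimum of 20 UMIs, equal weight of clusters, stricter filters, no doublet removal, members among the variable genes, resolution 0.5 and other folds for marks.

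Every member is named with its highest class, and every called member with its values. Catenins, other superfamily genes and clustered protocadherins are named where called, and ribosomal and mitochondrial genes are given by counts. The members and lists were chosen with earlier results of these data known.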

Additional observations from a re-analysis of the deposited data

Results flagged for a closer look

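For 6 members the ratio of PZKO over PS19 had opposite directions in different classes, called on both sides with all nuclei and without the nucleus with most UMIs. These members were compared in 17 (*Cdh22*) to 30 (*Pcdh7*) classes each. The share of all genes called in both directions was not counted, so the 6 are a list and not a result about the members. With 1 library per genotype the difference between the classes was not tested. The log2 ratio of *Cdh6* was 1.47 in Enpp6/Anln oligodendrocytes and −1.01 in Sst interneurons. That of *Cdh13* was 1.38 in CA1 pyramidal cells and −0.85 in astrocytes, both called under every other processing that gave a value. The ambient subtraction gave none for the CA1 pair. *Cdh22* was at 1.17 in CA3 and at −0.73 in CA1 pyramidal cells, *Pcdh7* at 1.13 in pericytes and mural cells and at −1.30 in Cobll1/Lpar1 excitatory neurons. For *Pcdh15* the log2 ratios were 1.09 in dentate granule cells and −0.75 in deep-layer corticothalamic neurons, and for *Pcdh17* 1.05 in Cdc14a/Cpa6 excitatory and −0.83 in Synpo2/Adamts19 neurons. The classes given are those with the highest and the lowest ratio of each member among the pairs still called without that nucleus. Of these 12 pairs, 6 lost the call under 1 processing: *Cdh6* with doublets kept (0.55) and in Sst interneurons under the stricter filter (−0.56), *Cdh22* in CA1 (−0.094) and *Pcdh15* in deep-layer neurons (−0.092) at a clustering resolution of 0.5, *Pcdh7* in pericytes under the stricter filter (0.085) and *Pcdh17* in Cdc14a/Cpa6 neurons with doublets kept (0.52).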

How the results depend on the processing

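Scaling by edgeR's TMM or DESeq2's size factors left all 67 called ratios in direction and within their 95% intervals, but did not keep every call. With DESeq2's size factors the log2 ratio of *Pcdh17* in Dcn/Oasl2 excitatory neurons was −0.55, short of 1.5-fold. A total of 25 of the 67 pairs were called under every processing listed above that gave a value. The ratios moved most with the filter on nuclei, the removal of doublets and the mean over nuclei. Under the stricter filter the log2 ratio reversed for *Cdh13* (−1.96) and *Pcdh7* (1.82) in vascular leptomeningeal cells and for *Cdh12* (0.60) and *Pcdh9* (0.89) in pericytes and mural cells. As a mean over nuclei it reversed for *Pcdh15* in vascular leptomeningeal cells (−0.065) and *Pcdh9* in pericytes and mural cells (0.53). With doublets kept it reversed for *Pcdh15* in vascular leptomeningeal cells (−0.015) and *Cdh8* in Hapln1/Egfr inhibitory neurons (−0.014). With the members among the variable genes it reversed for *Pcdh15* in CA1 pyramidal cells (−0.43). Without the nucleus with most UMIs, an alternative chosen after seeing the data, it reversed for *Pcdh15* in vascular leptomeningeal cells (−0.18) and in pericytes and mural cells (0.15), and 25 pairs were higher and 15 lower in place of 41 and 26. The cause was not tested for those of the filter and the variable genes, while the top nucleus is removed by construction. A minimum of 20 UMIs, which admits more pairs, gave 68 higher and 44 lower. Equal weight of clusters, possible in 3 classes, gave 5 higher and 1 lower. With UMIs summed over nuclei, the same classes had 0 higher and 1 lower in oligodendrocytes, 1 and 1 in astrocytes, and 1 and 0 in dentate granule cells. At 1.5-fold in place of 2-fold, 4 members marked a neuron class in place of 1. For the counts under these alternatives no share of all genes is given, so they are not a result about the members.

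No paired analysis was possible because each genotype has 1 library, and for the same reason no replicate was left out. Depth limits the comparison to pairs with at least 100 UMIs, which left out 8 members. The intervals cover the counting error of UMIs summed per class. They cover neither the spread between nuclei nor that between the 5 animals of a pool.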
